A study of Mus musculus with 6 samples.

Results

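BAF, the mammalian SWI/SNF complex, uses the energy of ATP to slide and evict nucleosomes, and it opens chromatin at promoters and enhancers. The complex is assembled from subunits that exist as paralogs, so that a given position is filled by SMARCA4 or SMARCA2, by ARID1A or ARID1B, and by SMARCC1 with or without SMARCC2. The form found in mouse embryonic stem cells (mESCs), called esBAF, is built around SMARCA4, SMARCC1, SMARCD1, ARID1A, DPF2 and ACTL6A together with the core subunit SMARCB1, whereas SMARCA2 and SMARCC2 are incorporated more in differentiated cells.

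Described here are 10 BAF genes, chosen by name, of 27706 protein-coding and lincRNA genes. The stem-cell subunits are Smarca4, Smarcc1, Smarcb1, Smarcd1, Arid1a, Dpf2 and Actl6a (7 genes), and the alternative paralogs are Smarca2, Smarcc2 and Arid1b (3 genes). Each was set against the list of H3K27ac peaks in control cells, since acetylation of lysine 27 of histone H3 is found at active promoters and enhancers. The study measured H3K27ac by ChIP-seq in mESCs of the line E14 (E14Tg2A), which in all groups carried Rosa26-Cre and Oct4-IRES-Puro and were grown with LIF and the inhibitors PD0325901 and CT-99021. Control cells received DMSO, and the other cells received NVP-2 (100 nM), an inhibitor of the elongation kinase CDK9, or actinomycin D (800 nM in the sample labels, 1 µg/ml in their protocol), which blocks RNA polymerases on DNA, for 120 min, with 2 samples of each group. Only the control list enters here. It pools both control replicates and gives 22973 positions without heights, so no value below has a replicate error and no test between genes or samples was made. The treated samples were not analyzed here.

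As a check of the cell type, a peak lay within 1 kb of a transcription start site (TSS) at 8 of 8 mESC marker genes, Pou5f1, Sox2, Nanog, Zfp42, Tfcp2l1, Dppa5a, Utf1 and Lin28a, against 43.6% of all genes. None of 4 fibroblast genes had one (95% Wilson interval 0 to 49.0%). Of 4 neuronal genes Tubb3 had one, and of 4 endoderm genes Gata4 and Gata6 had one.

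A promoter was called marked when a peak overlapped the ±1 kb window around the TSS of any protein-coding or lincRNA isoform by at least 1 bp. Of the 10 genes 9 were marked, or 90.0% (95% Wilson interval 59.6 to 98.2%, which covers counting error only), and the exception was Smarca2. Over all genes the share was 43.6%, and over protein-coding genes it was 51.0%. The RefSeq promoters of all 10 genes were rich in CpG, by limits given below. By these starts 8 of the 10 genes had a peak, against 79.5% of all promoters past the limits. All 7 stem-cell subunits were marked, and of the alternative paralogs Smarcc2 and Arid1b were. With the longest isoform alone 8 of 10 were marked, against 41.7% of all genes and 48.8% of protein-coding genes, because the main start sites of Arid1a had no peak.

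The sequences before the start sites of the paralog pairs are shown because those of Smarca2 and Arid1a, which had no peak, are also rich in CpG. They were taken from RefSeq (GRCm38.p6) upstream of the first annotated exon, are written 5′ to 3′ on the strand of the gene, and have in capitals each GC box, the motif GGGCGG on either strand. Smarca4 is shown from chr9:21615919-21616168, Smarca2 from chr19:26604910-26605049, Smarcc1 from chr9:110131774-110131979, Smarcc2 from chr10:128458986-128459235, Arid1a from chr4:133756770-133757019 (minus strand) and Arid1b from chr17:4994824-4994938.
Smarca4: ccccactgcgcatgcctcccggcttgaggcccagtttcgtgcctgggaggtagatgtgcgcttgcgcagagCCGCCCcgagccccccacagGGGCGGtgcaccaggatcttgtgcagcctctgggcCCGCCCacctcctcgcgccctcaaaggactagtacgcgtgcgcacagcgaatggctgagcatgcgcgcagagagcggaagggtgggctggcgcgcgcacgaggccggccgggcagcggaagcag
Smarca2: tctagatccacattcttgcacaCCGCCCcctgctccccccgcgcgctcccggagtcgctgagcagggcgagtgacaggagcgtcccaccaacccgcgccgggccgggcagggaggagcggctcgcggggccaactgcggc
Smarcc1: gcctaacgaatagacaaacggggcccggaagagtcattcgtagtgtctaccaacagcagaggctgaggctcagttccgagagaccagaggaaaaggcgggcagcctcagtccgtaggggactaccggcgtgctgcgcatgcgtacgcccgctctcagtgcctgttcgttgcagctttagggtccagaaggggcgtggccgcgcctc
Smarcc2: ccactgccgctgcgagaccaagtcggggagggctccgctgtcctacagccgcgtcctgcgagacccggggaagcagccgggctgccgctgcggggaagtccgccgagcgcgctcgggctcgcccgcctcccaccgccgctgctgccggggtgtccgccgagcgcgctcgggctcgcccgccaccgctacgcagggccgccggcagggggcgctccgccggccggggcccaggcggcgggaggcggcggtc
Arid1a: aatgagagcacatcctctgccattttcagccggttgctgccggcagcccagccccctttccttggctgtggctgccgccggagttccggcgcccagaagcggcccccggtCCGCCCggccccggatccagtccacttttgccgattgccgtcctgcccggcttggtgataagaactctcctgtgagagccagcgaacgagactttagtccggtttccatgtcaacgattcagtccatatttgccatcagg
Arid1b: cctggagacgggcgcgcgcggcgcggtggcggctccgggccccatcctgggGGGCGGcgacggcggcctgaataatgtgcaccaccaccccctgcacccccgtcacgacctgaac

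The 10 genes were all found among the RefSeq promoters, which run from 250 bases before to 50 bases after the start. Their GC content ranged from 58.7% to 81.0%, against a median of 52.7% over 32851 promoters. The ratio of CpG observed over expected, which is low where methylated CpG has been lost from a genome, had a median of 0.948 in the 10 genes and 0.384 over all promoters. The unmarked promoters lay within the range of the others. Smarca2 had a GC content of 65.7% and a CpG ratio of 0.900, with 29 CpG, and its paralog Smarca4 had 72.3% and 0.851, with 33 CpG. Arid1a had 61.3% and 0.787 at the start of its longest isoform and 79.7% and 0.849 at its other RefSeq start, and Arid1b had 75.3% and 0.996. All 10 genes passed the customary limits of a CpG island, a GC content of at least 50% and a ratio of at least 0.6, as did 33.5% of all promoters. Over the table, 79.5% of promoters past both limits had a peak within 1 kb (95% Wilson interval 78.8 to 80.3%). Of the others 19.5% did (19.0 to 20.0%). By the same starts 8 of the 10 genes had a peak, close to the share of promoters past both limits. Promoters are not independent of each other, since some genes have several starts in the table.

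**Figure D1:**
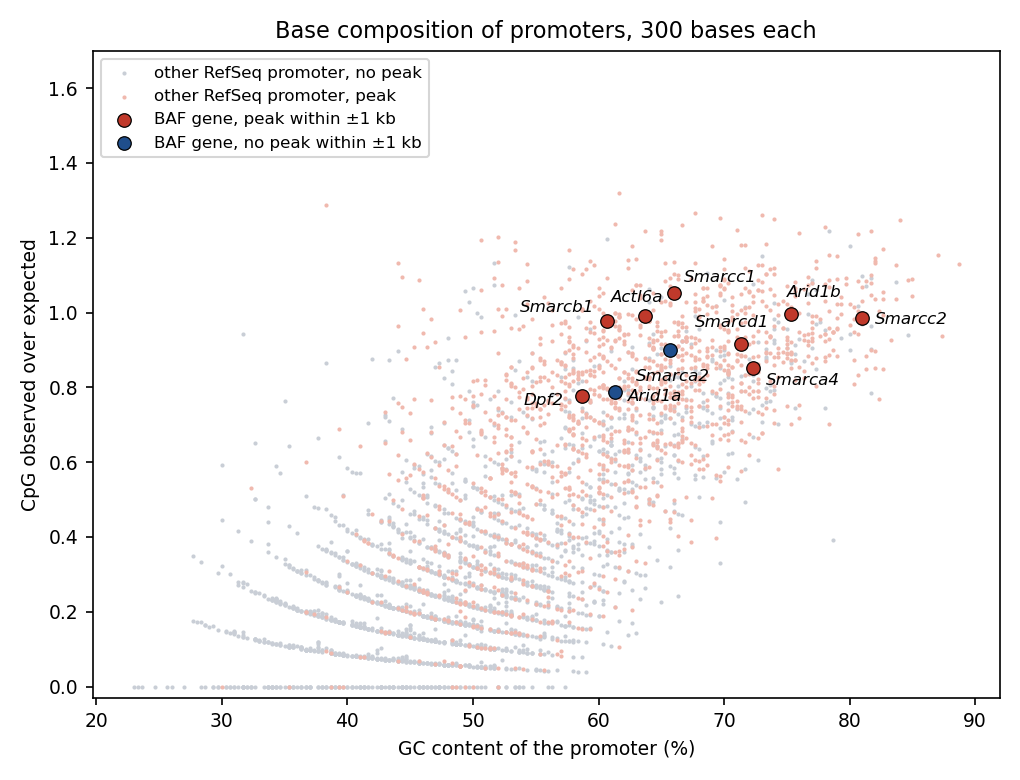
Base composition of RefSeq promoters: the x axis gives GC content in percent, the y axis the ratio of CpG observed over expected, and each small point is 1 of 4000 promoters drawn at random from the table, colored by whether a peak lies within 1 kb of its start. Large points are the 10 BAF genes, and the 2 without a peak, Smarca2 and Arid1a, lie among the 8 with one.

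Short motifs were searched on both strands of these full RefSeq promoters, with matches allowed to overlap. The sequences printed above are only parts of them, so some matches lie outside the printed bases. The GC box was present in 9 of the 10 genes, all but Dpf2, and in 35.7% of all promoters. The Nrf1 letters TGCGCA were present in 4 of 10, namely Smarca4, Smarcc1, Smarcb1 and Dpf2, and in 7.76% of all promoters. The ETS letters CCGGAAG occurred in Smarcc1 and Smarca2, a marked and an unmarked promoter, and in 8.86% of all promoters. CCAAT was found in Dpf2 alone (37.4% of all promoters), and the Yy1 letters AAGATGG in Smarcd1 alone (6.34%). Neither TATAAA nor the E-box CACGTG occurred in any of the 10, against 13.6% and 7.15% of all promoters. All 10 promoters passed the CpG limits, as did 33.5% of all promoters, and motif shares among promoters past the limits were not computed. How far these differences follow base composition was not tested.

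In the ATPase pair, Smarca4 had a promoter peak and Smarca2 had no peak. Smarca4 (ENSMUSG00000032187.16), which encodes the ATPase also called BRG1, spans 21616169 to 21704230 of chromosome 9 (mm10) and is read on the plus strand. A peak of 7508 bp, from 21614137 to 21621644, covered the starts of 3 of its 4 isoforms and reached 2.03 kb upstream and 5.47 kb downstream of the TSS of the longest, into the first intron. The start of the remaining isoform, inside the gene at 21635767, was 14.1 kb from that peak. No other peak lay in the gene, and peaks covered 6.22% of its length.

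Smarca2 (ENSMUSG00000024921.17), which encodes the alternative ATPase BRM, spans 26605050 to 26778322 of chromosome 19 and is also read on the plus strand. It had 27 isoforms with 25 start sites, and no peak at any of them, in the gene, or within 50 kb of it. The nearest peaks lay 463 kb before the start of the gene and 438 kb past its end, and the start farthest from a peak, at 26671139, was 529 kb from one. The gene lies inside a stretch without peaks of 1074 kb, from 26141925 to 27216196, that holds 9 protein-coding or lincRNA genes, of which Smarca2 and Gm815 are protein-coding. The peak at its far end lies next to the start of Vldlr. This stretch was the 7th longest of 701 gaps between peaks on the chromosome, and 396 of 22952 gaps in the list were at least as long. Most of its start sites lie close together, so that their windows overlap. Of 25 protein-coding genes with at least 20 isoforms, 56.0% were marked. Of protein-coding genes between 100 and 200 kb long, 63.1% were marked, and 15.1% had, like Smarca2, no peak in the gene, its promoters or its flanks. That share was 23.9% over all protein-coding genes and 29.1% with lincRNA genes included.

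The scaffold subunits, which hold the complex together, were both marked. Smarcc1 (ENSMUSG00000032481.17), on chromosome 9 from 110117708 to 110240178, had 2 promoter peaks. That at its main start was 6569 bp wide, from 110128367 to 110134935, and held the starts of 4 of 6 isoforms. The other, of 2879 bp from 110115511 to 110118389, held the start of a short isoform of 4 exons and the promoter of Dhx30, an RNA helicase gene. The start of the sixth isoform, at 110234908, was 10.3 kb from a peak. Smarcc2 (ENSMUSG00000025369.15), on chromosome 10 from 128459248 to 128490482, had a promoter peak of 1644 bp, from 128458480 to 128460123, which held the starts of all 4 isoforms. Of all promoter peaks in the list, 83.1% were narrower than that at the main start of Smarcc1, and 30.0% were narrower than that of Smarcc2. Without replicate lists or heights, the error of a peak's width is unknown.

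The ARID pair, which encodes the large subunit that sets canonical BAF apart, ran the other way at the main start. Arid1b (ENSMUSG00000069729.14), spanning 4994939 to 5347656 of chromosome 17, had a promoter peak of 2603 bp, from 4993850 to 4996452, that held the starts of all 4 isoforms. Arid1a (ENSMUSG00000007880.16), spanning 133679008 to 133756769 of chromosome 4 and read on the minus strand, had none at the starts of its 3 long isoforms, which span 74.6 to 76.8 kb and 20 exons each. The nearest peak was 12.0 kb upstream of the first of these starts and 15.1 kb upstream of that shared by the other two, from 133768748 to 133769896. Arid1a counted as marked through a short isoform of 2 exons, whose start at 133723879 lies in the first intron of the longest isoform, inside a peak of 11713 bp from 133723294 to 133735006. Of all genes 1.82%, and of protein-coding genes 2.17%, were marked at another isoform only. The RefSeq table had no Arid1a start within 1 kb of this peak, so by RefSeq starts, an alternative chosen after seeing the data, Arid1a was unmarked.

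The bases before the internal start of Arid1a, read from the GRCm38 genome at chr4:133723880-133724129 on the minus strand, are shown because they differ in composition from those before its main start given above. They had a GC content of 45.6%, a CpG ratio of 0.0770 and 1 CpG in 250 bases, with no GC box. Before the main start the same 250 bases had 61.2%, 0.784 and 18 CpG. The internal start, which lay in the peak, was thus the poorer in CpG.
Arid1a, internal start: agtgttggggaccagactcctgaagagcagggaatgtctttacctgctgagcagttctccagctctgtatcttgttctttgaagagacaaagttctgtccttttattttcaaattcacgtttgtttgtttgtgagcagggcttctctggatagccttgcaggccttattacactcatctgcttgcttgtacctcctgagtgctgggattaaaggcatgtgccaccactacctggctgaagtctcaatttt

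The remaining stem-cell subunits were marked at their main starts. Smarcb1, the core subunit lost in rhabdoid tumors, had a peak of 1813 bp from 75920585 to 75922397 on chromosome 10 at the starts of both isoforms. Dpf2, whose protein reads histone acetylation, had a peak of 2025 bp from 5911803 to 5913827 on chromosome 19 at 2 of 3 isoform starts. Both peaks were close to symmetric, with 0.780 kb upstream and 1.03 kb downstream of the TSS for Smarcb1 and 0.956 and 1.07 kb for Dpf2. Smarcd1, a subunit that contacts transcription factors, had a peak of 6823 bp from 99701426 to 99708248 on chromosome 15 that held all 5 isoform starts and lay mostly downstream, with 0.703 kb before and 6.12 kb after the TSS. It also held the promoter of the protein-coding gene Gm17349. Actl6a, an actin-like subunit, had a peak of 7387 bp from 32704704 to 32712090 on chromosome 3 that held all 3 isoform starts.

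The widest promoter peak of each marked gene had a median of 6569 bp over the 9 genes, against 2225 bp over 11149 marked protein-coding genes. Of the 9, the peaks of Smarca4, Smarcc1, Smarcd1, Arid1a and Actl6a lay above the upper quartile of those genes, 4990 bp. These are 5 of the 7 stem-cell subunits. In the wider BAF list the peaks of Smarcd3 (8365 bp), an alternative paralog, Actb (9749 bp) and Bicral (21504 bp) also lay above it. Such widths were thus not limited to the stem-cell subunits. The Bicral peak held none of its starts, and the nearest was 0.635 kb away. The peaks of Smarcb1 and Dpf2 did not lie above the upper quartile, and neither did those of Smarcc2 and Arid1b. For Arid1a this is the intronic peak. Width also depends on the merging of peaks closer than 2 kb by the authors.

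**Figure D2:**
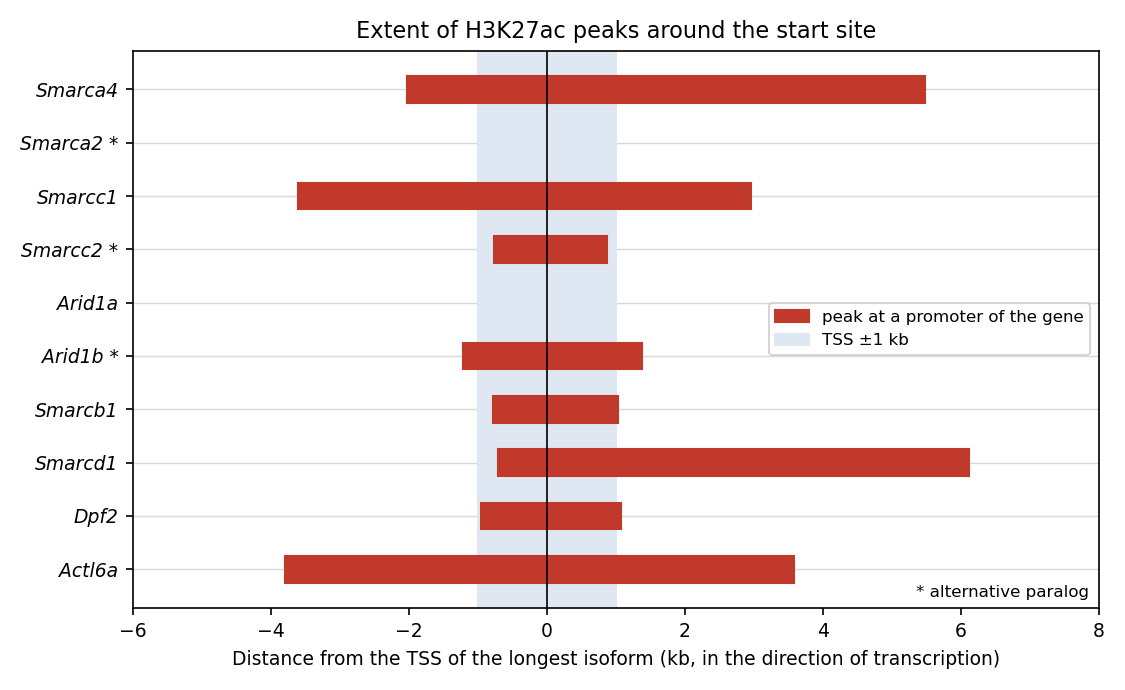
Extent of the peaks at the main start of each gene, that of its longest isoform: the x axis gives the distance in kb in the direction of transcription, red bars are peaks, the shaded band is the ±1 kb window, and asterisks mark the alternative paralogs. Smarca2 and Arid1a have no peak in the window, and Smarca4, Smarcc1, Smarcd1 and Actl6a have the widest ones.

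Peaks inside a gene but away from its promoters were found in 3 of the 10 genes, Arid1b, Smarcc2 and Smarcd1, against 16.4% of all genes and 18.7% of protein-coding genes. The share rises with length, from 9.34% of protein-coding genes shorter than 30 kb to 55.5% of those of at least 200 kb. Arid1b, which spans 353 kb, held 9 such peaks. All had their midpoint in an intron of the longest isoform, in introns 2, 4, 6, 8 and 13, and none overlapped the promoter window of another gene. The widest were those from 5050345 to 5061502 (11158 bp) and from 5084584 to 5093295 (8712 bp), both in intron 2. The narrowest, of 797 bp, lay in intron 13 near the end of the gene. Of 977 protein-coding genes of at least 200 kb, 23 or 2.35% had at least as many such peaks, a limit set at the count of Arid1b itself, as had 0.119% of protein-coding genes and 0.108% of all genes. Peaks covered 10.5% of Arid1b, against a median of 0.461% over these long genes (quartiles 0 and 2.04%).

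Smarcc2 held 2 further peaks. One of 1685 bp, from 128473601 to 128475285, lay in an intron of the longest isoform. The other, of 10472 bp from 128489521 to 128499992, reached over the 3′ end of Smarcc2 and overlapped promoter windows of the neighboring genes Myl6, Myl6b and A430046D13Rik, so it cannot be told to which gene it belongs. Smarcd1 held a peak of 477 bp in its last exon, exon 13, from 99712724 to 99713200. The other stem-cell subunits held none, except that the intronic peak of Arid1a was counted above as a promoter peak.

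The share of the gene covered by peaks of any kind was largest in Smarcd1 (55.6%) and Actl6a (28.0%), both under 30 kb long. It was 15.1% in Arid1a, 11.3% in Smarcc2, 6.54% in Dpf2, 5.92% in Smarcc1 and 4.16% in Smarcb1, and 0 in Smarca2. The median over the 10 genes was 8.54%, and over protein-coding genes with a marked promoter it was 9.59% (quartiles 3.58 and 26.0%).

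**Figure D3:**
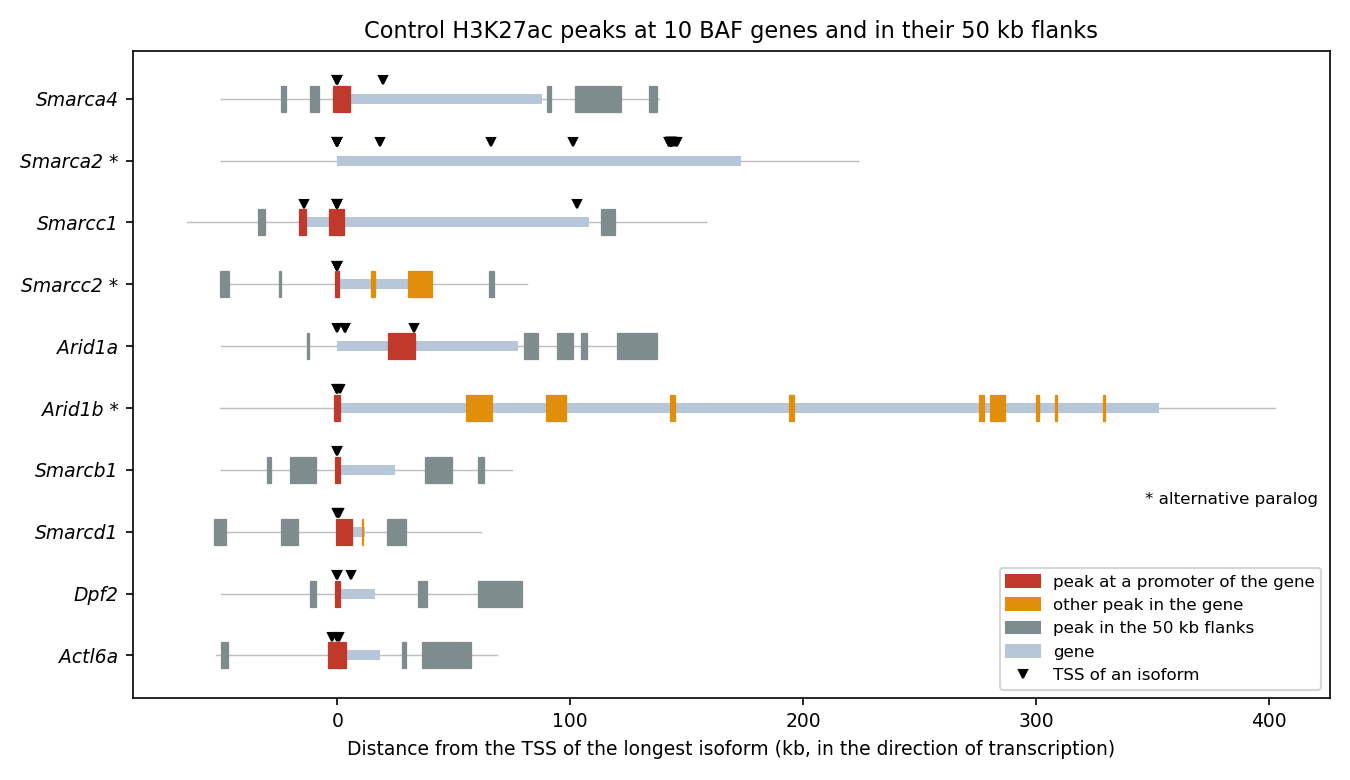
Peaks at the 10 genes and in their 50 kb flanks: the x axis gives the distance in kb from the TSS of the longest isoform in the direction of transcription, blue bars are genes, triangles are isoform starts, and peaks are red at a promoter of the gene, orange elsewhere in the gene and gray in the flanks. Smarca2 has no peak, Arid1b has 9 in its introns and none in its flanks, and the others have 2 to 5 in their flanks.

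A peak that overlapped the 50 kb beyond either end of the gene, but neither the gene nor its promoter windows, was present at 8 of the 10 genes, against 63.2% of all genes and 67.5% of protein-coding genes. The exceptions were Smarca2 and Arid1b. Counted with 6 further paralogs of the wider list, 7 of 9 alternative paralogs had a flank peak. Together the genes had 28 flank peaks with a median of 3.00 per gene, against a median of 1.00 over protein-coding genes. Of the 28, 17 overlapped a promoter window of another gene and 11 overlapped none. Smarca4 and Arid1a had 5 each, and 88.7% of protein-coding genes had fewer. Smarcb1 had 4, Smarcd1, Dpf2, Actl6a and Smarcc2 had 3, and Smarcc1 had 2.

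Flank peaks at no promoter were found near Smarca4 (3), Arid1a (3), Smarcb1 (2), Smarcd1 (1), Actl6a (1) and Smarcc2 (1), or 6 of the 10 genes, against 42.1% of all genes. The one nearest upstream of Smarca4, of 3737 bp from 21604567 to 21608303, began 11.6 kb before the TSS. Near Smarcb1 an 11771 bp peak from 75872204 to 75883974 lay past the 3′ end of the gene, and near Smarcd1 a 7575 bp peak from 99677814 to 99685388 lay upstream. The flank peaks of Smarcc1 were all at promoters of other genes, Dhx30 and Cspg5, and those of Dpf2 were at Neat1, Frmd8 with Slc25a45, and Cdc42ep2. Among the wide flank peaks, that of 19176 bp near Dpf2 held a start of Neat1, whereas that of 20840 bp near Actl6a overlapped a promoter window of Ndufb5 but held none of its starts.

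A list of 21 further genes of the BAF family was compared in the same way. Of these 17 were marked, or 81.0% (95% Wilson interval 60.0 to 92.3%). The share was 43.6% over all genes, 51.0% over protein-coding genes and 79.5% over RefSeq promoters past both CpG limits. With the longest isoform alone 15 of the 21 were marked, against 41.7% of all genes and 48.8% of protein-coding genes. All 4 genes particular to PBAF, a form with other targeting subunits (Pbrm1, Arid2, Brd7 and Phf10), and all 3 of the noncanonical form ncBAF (Brd9, Bicra and Bicral) were marked. Of 8 shared subunits 6 were marked, and the exceptions were Bcl11a and Bcl11b, zinc finger genes of neurons and lymphocytes, whose nearest peaks were 124 and 143 kb from the TSS of the longest isoform. At Bicral the longest isoform was 4.93 kb from a peak, and another isoform, 0.635 kb from a peak, counted.

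Of 6 further paralogs, most of them known from differentiated cells such as neurons and muscle, 4 were marked. Smarcd2, Dpf1 and Ss18l1 had a peak at the longest isoform. Smarcd3, which serves in heart and neurons, had one at another start only, since the TSS of the longest isoform was 19.1 kb from a peak. Actl6b, the neuronal paralog of Actl6a, was 19.4 kb from a peak, and Dpf3, a paralog of Dpf2, was 19.2 kb from one at its longest isoform and 13.9 kb at the nearest start. Counted with Smarca2, Smarcc2 and Arid1b, 6 of 9 alternative paralogs were marked, or 66.7% (35.4 to 87.9%), and all 7 stem-cell subunits were (64.6 to 100%). The interval of the alternative paralogs overlaps that of the stem-cell subunits and holds the share of protein-coding genes, 51.0%. With the longest isoform alone, 5 of 9 alternative paralogs and 6 of 7 stem-cell subunits were marked, against 48.8% of protein-coding genes. The genes were chosen by name, and no test of the difference was made.

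**Figure D4:**
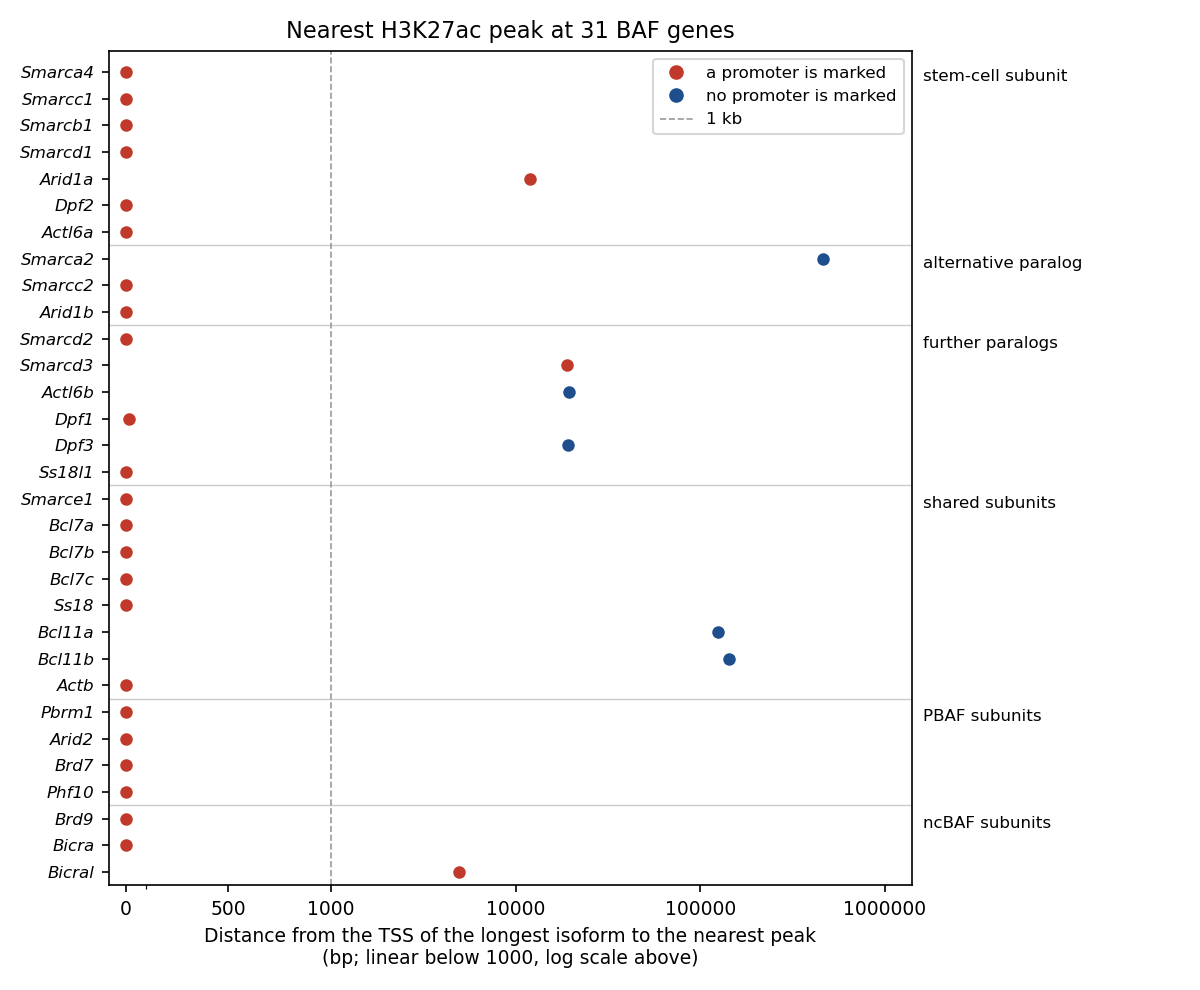
Distance from the TSS of the longest isoform to the nearest peak at 31 BAF genes: the x axis is in bp, linear up to 1 kb and logarithmic above, each point is 1 gene, grouped by list, and red points are genes with a marked promoter at any isoform. Smarca2 is the farthest at 463 kb, followed by Bcl11b and Bcl11a, and Arid1a, Smarcd3 and Bicral are red points beyond the dashed line at 1 kb.

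Unmarked genes of the wider list were also mostly rich in CpG. Of the 21 further genes, 14 were found among the RefSeq promoters, and 12 of these passed both limits, which 33.5% of all promoters did. By RefSeq starts 10 of the 14 were marked, against 79.5% of all promoters past both limits. Actl6b (GC content 61.7%, CpG ratio 0.827), Dpf3 (55.3%, 0.769) and Bcl11a (63.0%, 0.815) passed them without a peak, as Smarca2 did, whereas Bcl11b did not pass (43.0%, 0.652). The list holds only peaks that passed the authors' limits on height and on distance to ATAC-seq summits, so promoters without signal and promoters below these limits cannot be told apart.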

How the data were processed

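H3K27ac ChIP-seq of mESCs was described in 6 samples, 2 each of control, NVP-2 and ActD, grouped by the treatment in the labels. The authors trimmed reads with Cutadapt, aligned them with bwa meme to the mouse (mm10) and human genomes together, since human chromatin was added as a spike-in, removed duplicates (Picard 2.9.1) and reads of low mapping quality (samtools 1.4, versions per the labels). LanceOtron gave the peaks, and the authors merged those within 2 kb and filtered them by height over the input and by distance to ATAC-seq summits. The deposited file gives the start and end of each control peak in bp, pooled over both replicates, and neither enrichment nor read numbers, so the list itself shows no depth, and library totals were not used here.

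Peaks were compared with GENCODE M21 (GRCm38, the build of mm10), using 27706 protein-coding and lincRNA genes with 67283 transcripts of these types, and no peak reached past the end of its chromosome. Coordinates count the first base as 1. Gene body peaks overlap the span of the gene and none of its promoter windows, and flank peaks overlap the 50 kb beyond either end, so that some reach farther. The longest isoform was that of the longest genomic span. Sequences were read from the RefSeq promoter table and the GRCm38.p6 genome, which carry the same coordinates.

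The genes named are the 10 listed genes, the paralogs and unmarked genes of the wider list, and genes whose promoters share a peak with them or lie nearest to a peak described. The cell type markers are a list of their own. The genes at the stretch without peaks around Smarca2 and the marked PBAF, ncBAF and Actb genes are outside this rule and were named after their values were seen. The members and lists were chosen with earlier results of these data known. The CpG limits, the length classes and the class of genes with at least 20 isoforms were set after the data were seen. No test was made, since 1 pooled list has no replicates. Shares have 95% Wilson intervals for counting error only. The overlap functions were tested on simulated data, where 2000 of 2000 genes were recovered in every class. The comparison of paralog proteins that had been planned was not made, and protein sequences were not used here. Python 3.11.15, numpy 2.4.6, scipy 1.17.1, pysam 0.24.0 and matplotlib 3.10.9 were used.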

Additional observations from a re-analysis of the deposited data

How the results depend on the processing

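The count of 9 marked genes of 10 stayed at 9 with windows of ±500 bp and ±2 kb, the TSS inside a peak, transcripts of every type, peaks at least 1 kb wide and an overlap of at least 500 bp. It was 8 with the longest isoform only and with RefSeq start sites, the latter chosen after seeing the data, and in both Arid1a was the gene that changed. Of 80 values for single promoters these 2 changed. Of 21 other BAF genes 15 to 17 were marked under the GENCODE alternatives, and 10 of the 14 found in RefSeq were marked with RefSeq start sites.

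The share of all genes with a marked promoter, 43.6%, moved beyond its interval to 44.6% with ±2 kb, 40.4% with the TSS inside a peak, 41.7% with the longest isoform, 44.2% with transcripts of every type, 39.0% with peaks at least 1 kb wide and 42.2% with an overlap of at least 500 bp. The share with a gene body peak, 16.4%, moved to 15.9% clear of ±2 kb, 18.3% with the longest isoform, 15.3% with transcripts of every type, 14.7% with peaks at least 1 kb wide and 14.4% by midpoint, while 2 to 4 of the 10 genes had one. The share with a flank peak, 63.2%, moved to 56.0% within 50 kb of the TSS, 42.1% without peaks at other promoters, 59.3% with peaks at least 1 kb wide and 43.4% with flanks of 20 kb, while 6 to 8 of the 10 genes had one. Fewer peaks or narrower windows lower these shares by construction, and other causes were not tested. Of 50 body counts for single genes 4 moved by over 1.5 times, in Arid1a, Smarcd1 and Smarcc2, and of 40 flank counts 15 did, all lower. Smarca2 had no peak under any setting tried.

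No paired analysis was possible because 1 pooled list stands for both control replicates. Leaving out a replicate was not run for the same reason.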
